A study of Mus musculus with 19 samples.

Results

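Nephron progenitors of the mouse embryonic kidney were isolated in 2 ways, with an antibody against SIX2 or by the GFP of a Six2 reporter, and the RNA of the 2 kinds of preparation was compared across genes. The comparison used 6 of the 19 samples of the study, 3 libraries labelled SIX2+ and 3 labelled GFP+, all from CFW mice at the embryonic stage E16.5. Genes entered when their value was at least 1 in at least 3 of these 6 libraries, which left 11398 of 20162 gene names. Values are RPKM (read numbers divided by gene length and library depth), in 1 deposited table of 15 libraries that also holds 3 SIX2- libraries, 3 GFP- libraries and 3 libraries of an unsorted source labelled NZC.

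The SIX2+ and SIX2- cells came from the NZC source, no reporter allele is given for them, and their library names carry the term mMARIS. MARIS is a method in which cells are fixed, stained for a protein inside the cell and sorted before their RNA is extracted. The GFP+ and GFP- cells came from developing kidneys with the allele Six2TGC/+, known as a transgene in which Six2 regulatory DNA drives a fusion of GFP and Cre recombinase. Sorting method, reporter allele and tissue source therefore differed together between the groups, and their parts in any difference cannot be told apart. A kit made for fixed material (RecoverAll) and the RNeasy Micro kit are both named in the labels' protocols, without saying which library had which. The labels do not say that the libraries of a group came from separate litters, so the p-values below measure the spread between these libraries, which may be technical.

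SIX2 is the transcription factor that keeps nephron progenitors of the cap mesenchyme in an undifferentiated, self-renewing state. These cells lie around the tips of the ureteric bud, and the least committed of them also express Cited1. Wnt9b from the bud and beta-catenin in the progenitors drive both renewal and induction. Cells that are induced switch on Wnt4, Pax8, Fgf8 and Lhx1 and turn into the epithelium of the renal vesicle.

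Six2 itself was high in all 6 libraries. It stood at 301, 295 and 458 RPKM in SIX2+ cells and at 312, 348 and 346 in GFP+ cells, so the groups overlapped. The level was 2.7 to 46.8 in the 6 negative libraries. The difference of log2(RPKM + 1), SIX2+ minus GFP+, was 0.04 ± 0.20 (SE, n = 3 libraries per group; limma's adjusted p = 0.926), and its sign turned under other settings. Eya1, Crym and Sall1, other genes of progenitors, overlapped between the groups too. Foxd1, the transcription factor of the cortical stroma, was at 16.0 to 30.6 in SIX2+ and 28.6 to 44.3 in GFP+ cells, against 51.4 to 103 in the negative libraries (difference -0.65 ± 0.23, adjusted p = 0.126).

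Depth was estimated at 27.1 to 45.3, in units of 1000000 reads, in the SIX2+ libraries and at 32.0 to 42.1 in the GFP+ libraries. Libraries of the same group correlated across genes at r = 0.971 to 0.992, and libraries of different groups at 0.942 to 0.977. Some libraries stood apart in particular genes. The library labelled SIX2+ 1 held Six3 and Nxph1, which were close to 0 in SIX2+ 2 and 3, as described below. A set of 6 genes, all named or annotated as pseudogenes, was over 5-fold lower in both libraries numbered 3 than in each of the libraries numbered 1 and 2, and no gene was over 5-fold higher there. Transcripts of both sexes, Xist and the Y-linked Ddx3y, were present in all 6 libraries.

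The test found 771 genes that differed at a Benjamini-Hochberg adjusted p under 0.05 (limma on log2(RPKM + 1), two-sided), 6.76% of the genes tested. Of these, 281 were higher in SIX2+ cells, 2.47% of the genes tested, and 490 were higher in GFP+ cells, 4.3%. The difference was at least 1 on the log2 scale in 82 of the former and 218 of the latter. The groups did not overlap for 3047 genes, 26.7% of those tested, and for 770 of the 771 called. The median difference over all genes was 0.06. Rescaled to TPM it became -0.05, and the share of called genes that were higher in SIX2+ cells moved from 36.4% to 23.6%. Without GFP+ 1 the test called 364 genes, and without SIX2+ 2 it called 446.

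**Figure D1:**
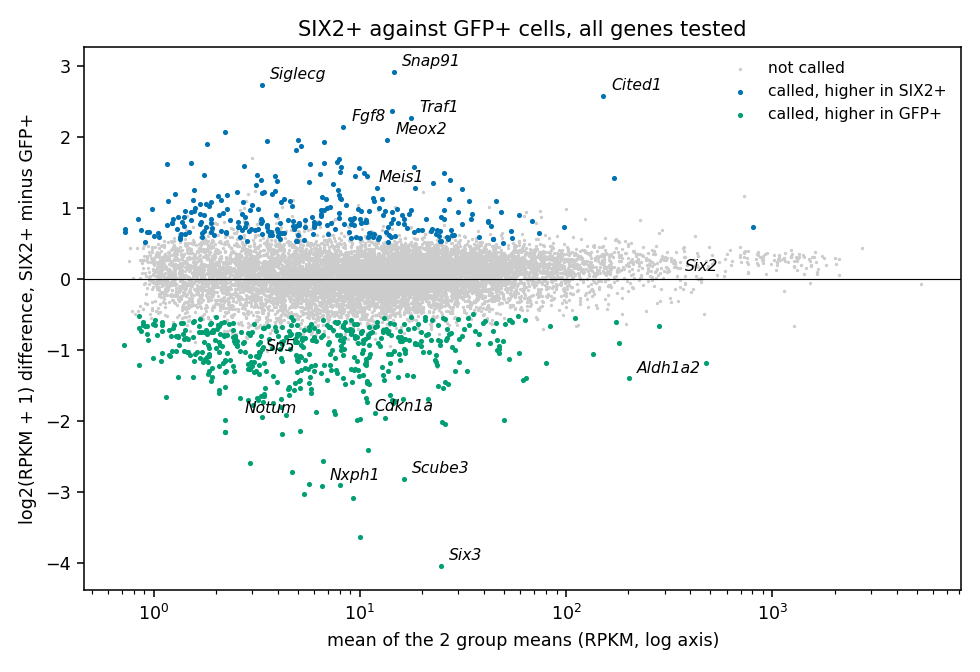
Each point is 1 of the 11398 genes tested, with its level (mean of the 2 group means, RPKM, log axis) across and the difference of log2(RPKM + 1), SIX2+ minus GFP+, upward; colours mark the 281 genes called higher in SIX2+ cells and the 490 called higher in GFP+ cells. Six2 lies near 0, while Snap91, Siglecg and Cited1 stand at the top and Six3 lies lowest at -4.04.

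Several progenitor genes were higher in SIX2+ than in GFP+ cells, among them Cited1, while others, Six2 included, did not pass the test. Of 22 tested members of a list of 23 progenitor genes, 6 were higher in SIX2+ cells (Cited1, Traf1, Meox2, Phf19, Tmem100 and Meox1), against 2.47% of all genes, and 1, Nell1, was higher in GFP+ cells. The median difference of the list was 0.13, against 0.06 over all genes. With all 15 libraries in the fit the count higher in SIX2+ cells was 2, and Cited1, Traf1, Phf19 and Meox1 were not called. Under the other alternatives it was 5 to 8.

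Cited1, a transcriptional coactivator of the earliest progenitors, was at 226, 213 and 339 RPKM in SIX2+ cells and at 42.6, 57.0 and 29.7 in GFP+ cells. The lowest SIX2+ library was above the highest GFP+ library, and the means differed 6.02-fold (log2 difference 2.58 ± 0.25, limma's adjusted p = 0.000511). Traf1, an adaptor of TNF receptor signalling, was at 21.3, 25.2 and 43.7 against 3.26, 7.26 and 5.61 (2.27 ± 0.29, adjusted p = 0.00151). The homeobox gene Meox2 was at 22.3, 27.0 and 17.5 against 5.44, 5.24 and 4.03 (1.97 ± 0.18, adjusted p = 0.000463). Its relative Meox1 was at 41.7, 40.6 and 51.8 against 19.5, 19.4 and 15.1, a smaller difference of 1.27 ± 0.16 with no overlap (adjusted p = 0.00147). Phf19, a subunit of Polycomb repressive complex variants, was at 34.8, 32.8 and 47.1 against 12, 13.4 and 12.8 (1.5 ± 0.16, adjusted p = 0.000694). Tmem100, a membrane protein, was at 10.3, 21.6 and 11.8 against 3.93, 5.90 and 3.64 (1.45 ± 0.26, adjusted p = 0.00723).

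For the progenitor genes Eya1, Crym and Sall1 the libraries of the 2 groups overlapped. Eya1, the phosphatase cofactor of SIX2, was at 68.2, 73.6 and 62.0 in SIX2+ cells and 87.6, 70.1 and 84.0 in GFP+ cells (-0.24 ± 0.14, adjusted p = 0.362). Crym, a thyroid hormone binding protein, was at 257, 188 and 170 against 278, 364 and 208 (-0.45 ± 0.23, adjusted p = 0.284). Sall1 was at 103, 104 and 98.2 against 126, 86.6 and 121 (-0.11 ± 0.17, adjusted p = 0.739). Wt1, the Wilms tumour factor, was higher in every SIX2+ library, at 147, 155 and 121 against 102, 82.5 and 99.0, and missed the threshold (0.57 ± 0.16, adjusted p = 0.0564). Nell1, a secreted glycoprotein, went the other way at 31.2, 35.4 and 38.0 against 61.7, 63.2 and 68.3, without overlap (-0.87 ± 0.13, adjusted p = 0.00365). Its paralog Nell2, named after its values were seen, was at 3.69, 4.59 and 5.62 against 0.920, 0.971 and 0.656 (difference 1.60). Since Nell2 was under 1 in every GFP+ library, its direction was set by the filter and no test of it is given.

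**Figure D2:**
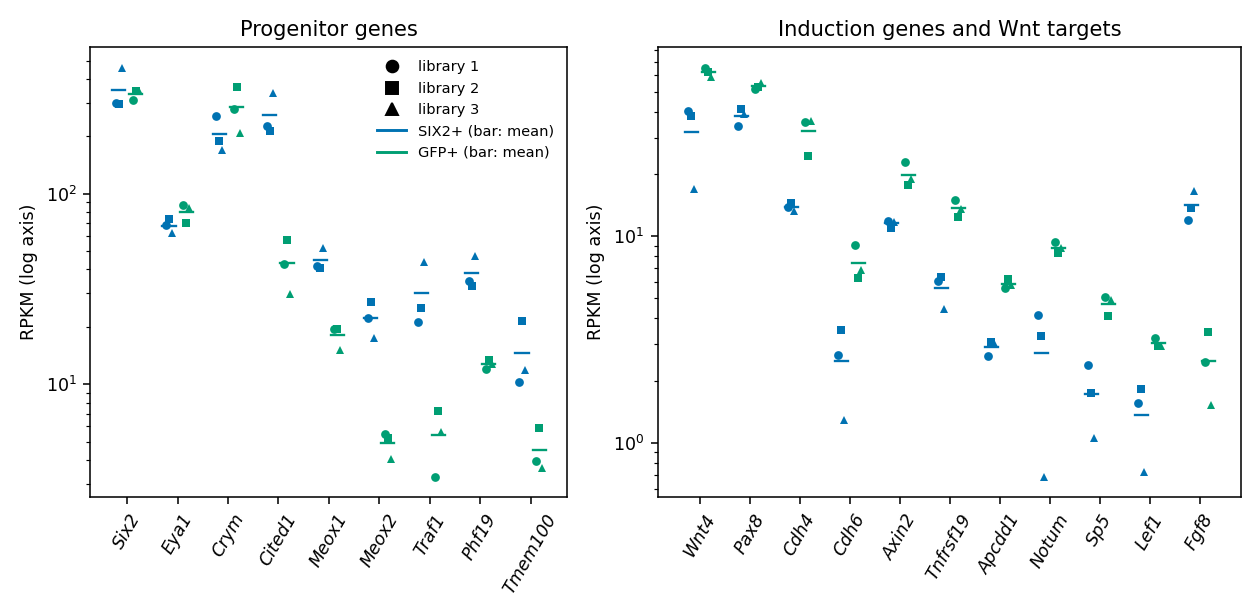
RPKM (log axis) of 9 progenitor genes (left) and 11 induction genes and Wnt targets (right) in the 3 SIX2+ and the 3 GFP+ libraries; symbols give the library number and bars the group means. Six2, Eya1 and Crym overlap between the groups, Cited1 to Tmem100 are higher in each SIX2+ library, and on the right each gene but Fgf8 is higher in each GFP+ library.

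FGF ligands split by member. Fgf8, made by induced progenitors and needed for nephrons to form, was at 12.1, 13.7 and 16.6 RPKM in SIX2+ cells and 2.48, 3.46 and 1.53 in GFP+ cells (2.15 ± 0.21, limma's adjusted p = 0.000579). All SIX2+ libraries lay above all GFP+ libraries, and the mean levels, 14.1 ± 2.31 and 2.49 ± 0.965 (SD), differed 5.68-fold. Fgf8 was also at 3.87, 9.10 and 7.71 in SIX2- cells and 0.252, 1.12 and 1.94 in GFP- cells. Fgf9, Fgf20 and Fgf10 were named after their values were seen. Fgf9, with Fgf20 a niche signal that keeps progenitors undifferentiated, was at 2.31, 3.66 and 2.44 against 0.301, 0.254 and 0.0975 (difference 1.63). Since Fgf9 was under 1 in every GFP+ library, its direction was set by the filter and no test of it is given. Fgf20 itself was at 11.5, 10.1 and 8.85 against 13.3, 17.2 and 15.1, and missed the threshold (-0.54 ± 0.15, adjusted p = 0.068). Fgf10 was lower in SIX2+ cells, at 7.84, 7.48 and 4.63 against 12.5, 14.0 and 10.5 (-0.82 ± 0.20, adjusted p = 0.032), a call lost without GFP+ 1, GFP+ 2, SIX2+ 2 or SIX2+ 3.

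Among the feedback genes that FGF signalling induces, 1 of 13 tested was called, against 6.76% of all genes. This was Dusp4, a phosphatase of ERK, at 12.1, 13.1 and 15.8 in SIX2+ cells and 27.7, 24.8 and 25 in GFP+ cells (-0.88 ± 0.14, limma's adjusted p = 0.00487). The sprouty gene Spry1 differed by -0.14, Dusp6 by 0.09 and Etv4 by 0.33, with adjusted p of 0.701, 0.754 and 0.268. The list's median difference was -0.03. None of 14 Notch pathway genes and none of 8 BMP target genes tested was called by limma, with 6 and 0 at an unadjusted p under 0.05. Without GFP+ 2 and without SIX2+ 2, 2 Notch pathway genes were called, without GFP+ 1 it was 1, and without SIX2+ 3 the test called 1 BMP target. Library weights called 1 Notch pathway gene higher in SIX2+ and 4 higher in GFP+ cells, and 3 BMP targets higher in SIX2+ cells. The replicate block and the term for the libraries numbered 3 each called 2 Notch pathway genes in each direction. At an adjusted p of 0.0505, Mfng, which adds sugars to Notch receptors, came nearest, at 2.59, 1.2 and 2.81 against 1.15, 0.657 and 0.321.

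Targets of Wnt and beta-catenin signalling were mostly higher in GFP+ cells. Of 19 genes listed, 13 were tested, 7 were higher in GFP+ cells, against 4.3% of all genes, and 1, Fgf8, was higher in SIX2+ cells. Notum, Tnfrsf19, Sp5, Wnt4, Apcdd1, Lef1 and Axin2 were the 7. The median difference of the list was -0.73. Wnt4, Fgf8 and Ccnd1 are also in the list of induction genes below. The count of 7 was the same without SIX2+ 1, with the libraries numbered 1 and 2 only and under each of 3 other scalings, and it was 4 after adjustment for exonic length, 3 without GFP+ 1, 4 without GFP+ 2 and 3 with no filter on low genes and with all 15 libraries in the fit.

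Sp5, a transcription factor that beta-catenin switches on directly, was at 2.39, 1.75 and 1.06 RPKM in SIX2+ cells and 5.08, 4.13 and 4.94 in GFP+ cells (-1.09 ± 0.19, limma's adjusted p = 0.00671). Notum, a secreted enzyme that inactivates Wnt proteins, was at 4.16, 3.28 and 0.686 against 9.36, 8.29 and 8.81 (-1.55 ± 0.34, adjusted p = 0.021). SIX2+ 3 had the lowest level of both genes. Tnfrsf19, a receptor of the TNF receptor family, was at 6.07, 6.32 and 4.46 against 15, 12.4 and 13.5 (-1.15 ± 0.16, adjusted p = 0.00236). Axin2, the feedback inhibitor used as a standard readout of the pathway, was at 11.8, 11 and 11.8 against 22.9, 17.8 and 18.8 (-0.73 ± 0.14, adjusted p = 0.0125). The GFP+ level of Axin2 was 1.72 times the SIX2+ level, and no library of one group reached into the other. Lef1, one of the TCF and LEF factors through which beta-catenin acts on DNA, was at 1.57, 1.83 and 0.720 against 3.22, 2.93 and 2.94 (-0.80 ± 0.19, adjusted p = 0.031). Apcdd1, a membrane inhibitor of Wnt signalling, was at 2.64, 3.07 and 3.04 against 5.64, 6.24 and 5.79 (-0.82 ± 0.14, adjusted p = 0.00584). Axin2, Lef1 and Apcdd1 were named after their values were seen. Notum and Lef1 were not called without GFP+ 1 or GFP+ 2, nor Axin2 without GFP+ 1 or SIX2+ 2. Znrf3, Nkd1, Bambi, Tcf7 and Ccnd1 were not called, with differences of -0.47 to 0.10.

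Because these targets moved together, their promoter sequences were searched for CTTTGA, the core that TCF and LEF factors bind, and its reverse complement TCAAAG. RefSeq windows on GRCm38.p6 from 250 bases before to 50 after the start site covered 5 of the 7 genes with 9 windows, of which 3 held the motif. Of all 32851 windows 16.0% held it, and of the windows of the genes tested 11.1%. Sp5 (chr2:70474673-70474972, plus strand) has 2 matches, 204 and 104 bases before the start. In Lef1 (chr3:131156044-131156343, plus strand), at 1 of its 4 start sites, the reverse complement lies 180 and 120 bases before it, and in Tnfrsf19 (chr14:61037938-61038237, minus strand), at 1 of 2 start sites, 201 bases before it. The windows of Axin2 and Wnt4 held no match. A match is a description of the sequence and not a sign of binding. The 3 windows are shown 5′ to 3′ with the motif in capitals.
Sp5: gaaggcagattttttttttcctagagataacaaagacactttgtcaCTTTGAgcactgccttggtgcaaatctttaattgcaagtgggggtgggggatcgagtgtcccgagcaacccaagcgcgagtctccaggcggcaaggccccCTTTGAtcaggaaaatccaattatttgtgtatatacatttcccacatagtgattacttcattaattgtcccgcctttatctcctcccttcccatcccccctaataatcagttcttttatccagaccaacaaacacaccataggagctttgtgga
Lef1: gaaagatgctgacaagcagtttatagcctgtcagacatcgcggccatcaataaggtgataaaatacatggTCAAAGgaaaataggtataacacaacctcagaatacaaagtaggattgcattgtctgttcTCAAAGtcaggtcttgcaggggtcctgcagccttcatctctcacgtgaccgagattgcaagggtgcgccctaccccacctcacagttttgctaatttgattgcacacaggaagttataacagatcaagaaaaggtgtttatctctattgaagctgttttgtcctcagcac
Tnfrsf19: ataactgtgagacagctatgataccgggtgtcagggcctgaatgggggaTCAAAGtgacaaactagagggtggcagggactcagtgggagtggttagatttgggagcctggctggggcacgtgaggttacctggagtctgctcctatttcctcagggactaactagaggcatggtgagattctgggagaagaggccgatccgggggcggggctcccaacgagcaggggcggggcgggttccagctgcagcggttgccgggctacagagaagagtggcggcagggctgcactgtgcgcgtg

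Genes of induction and early nephron structures were called in both directions. Among 23 tested of 28 listed, 5 were higher in GFP+ cells, Cdh6, Cdh4, Wnt4, Bmper and Cxcr4, against 4.3% of all genes, and Fgf8 was higher in SIX2+ cells, against 2.47%. The median difference was -0.50. It was 0.996 in the negative fractions, where the SIX2- cells had the higher levels. The count higher in GFP+ cells was 2 without GFP+ 1, with no filter and with all 15 libraries in the fit, 3 without GFP+ 3, 9 with library weights and 10 with the replicate number as a block.

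Wnt4, the signal that turns progenitors into epithelium, was at 40.4, 38.4 and 16.8 RPKM in SIX2+ cells and 65.3, 62.0 and 59.1 in GFP+ cells. SIX2+ 3 was well below the other SIX2+ libraries. The difference of -1.04 ± 0.27 only just passed (limma's adjusted p = 0.0494), and the call was lost under 10 of 21 other settings. Without SIX2+ 3 it was -0.64 (adjusted p = 0.0229). Cdh4 (R-cadherin) was at 13.9, 14.51 and 13.3 against 35.8, 24.6 and 36.1 (-1.13 ± 0.17, adjusted p = 0.00299). Cdh6 (K-cadherin), which marks the early proximal tubule, was at 2.66, 3.51 and 1.29 against 9.04, 6.30 and 6.90 (-1.31 ± 0.24, adjusted p = 0.00883). Bmper, a secreted BMP modulator, differed by -0.92 (adjusted p = 0.0166) and the chemokine receptor Cxcr4 by -0.50 (adjusted p = 0.0421). Pax8, a paired-box factor of induced cells, was at 34.0, 41.1 and 38.9 against 51.7, 52.8 and 55.1, and missed the threshold although the groups did not overlap (-0.48 ± 0.13, adjusted p = 0.0572). Lhx1, a marker of the renal vesicle, was low in both, at 2.26, 4.39 and 2.29 against 4.55, 4.94 and 3.34 (-0.44 ± 0.22, adjusted p = 0.274).

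Six3 had the largest difference of all genes tested. It encodes a homeobox factor related to SIX2 that acts in the forebrain and eye, and lies next to Six2 on chromosome 17 (GRCm38 chr17:85613608-85629302, Six2 at chr17:85684277-85688274). Six3 was at 52.3, 41.5 and 38.9 RPKM in GFP+ cells and at 15.2, 0.23 and 0.03 in SIX2+ cells (-4.04 ± 0.81, limma's adjusted p = 0.0141). The SIX2+ values fall into 1 library with clear signal, at 34.3% of the GFP+ mean, and 2 libraries close to 0. Only SIX2+ 1 reached 1 in that group, so Six3 passed the filter mainly through the GFP+ libraries. Without SIX2+ 1 the difference was -5.32. The SIX2+ libraries left were then all under 1, so the direction was set by the filter and no test of that fit is given. Without GFP+ 2 the adjusted p was 0.0503, and with no filter on low genes it was 0.107. An antisense transcript, Six3os1, overlaps Six3, and whether reads were counted by strand is not given in the sources used here.

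Six3 was also present in some of the other libraries. It was at 12.7, 5.16 and 0 in the unsorted NZC libraries, at 0 to 0.06 in SIX2- cells, and at 0.79, 0.61 and 1.22 in GFP- cells. Nxph1, which encodes the secreted neurexin ligand neurexophilin 1 and lies on chromosome 6, had the same profile. Nxph1 was at 13.4, 12.4 and 10.5 in GFP+ cells, at 2.75, 0.26 and 0.09 in SIX2+ cells and at 2.85, 0.90 and 0.07 in the NZC libraries (-2.92 ± 0.38, adjusted p = 0.0016). Its level in SIX2+ 1 was 22.7% of the GFP+ mean, and without that library the difference was -3.48. Like Six3, Nxph1 passed the filter mainly through the GFP+ libraries. Of the 490 genes called higher in GFP+ cells, these 2 were the ones with a level of at least 1 in SIX2+ 1 that was also at least 5 times that in SIX2+ 2 and 3. The labels give no reporter allele for SIX2+ 1, and the source of this signal was not tested.

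**Figure D3:**
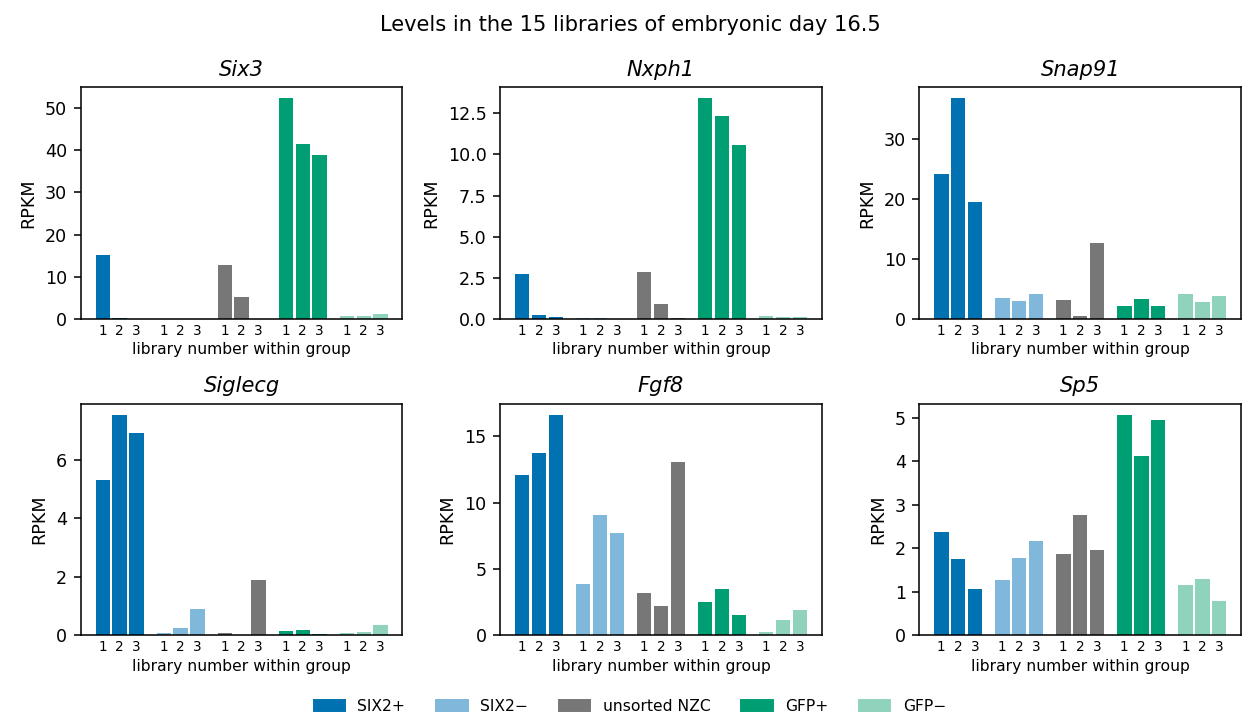
Bars give RPKM of 6 genes in each of the 15 libraries at E16.5, in 5 groups of 3 with the library number under each bar. Six3 and Nxph1 are high in the 3 GFP+ libraries and also present in SIX2+ 1, NZC 1 and NZC 2, whereas Snap91 and Siglecg are highest in the 3 SIX2+ libraries and Fgf8 in those and NZC 3.

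Of 19 listed genes around Six2 on chromosome 17, 13 were tested and only Six3 was called, against 6.76% of all genes. Srbd1, a gene of this neighbourhood, was at 11.6, 12.8 and 12.5 in SIX2+ cells and 14.1, 13.4 and 13.2 in GFP+ cells (-0.13 ± 0.13, limma's adjusted p = 0.593). Among 10 tested members of the families of Six2, Eya1 and Dach1, which act together in organ formation, Dach2 was also higher in GFP+ cells and Eya2 higher in SIX2+ cells. Of all genes 4.3% and 2.47% were called in these directions. Eya2 was at 11.4, 10.4 and 14.2 against 7.05, 6.66 and 6.21 (0.76 ± 0.15, adjusted p = 0.0147). Dach2 was at 0.964, 0.655 and 0.416 against 2.22, 1.78 and 1.81 (difference -0.82), a call lost without GFP+ 1. Since Dach2 was under 1 in every SIX2+ library, its direction was set by the filter and no test of it is given. Six4 and Eya4 had differences of -0.47 and -0.57, with adjusted p of 0.138 and 0.0694.

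Snap91 had the largest difference in favour of SIX2+ cells. It encodes AP180, an adaptor of clathrin-coated vesicles best known from synapses. Snap91 was at 24.2, 36.8 and 19.4 RPKM in SIX2+ cells and 2.23, 3.35 and 2.21 in GFP+ cells, a 10.3-fold ratio of the means (2.92 ± 0.23, limma's adjusted p = 0.000269). GFP+ cells were at the level of the negative cells, which had 2.90 to 4.12. Of 21 synapse and vesicle genes, 10 were tested, 4 were higher in SIX2+ cells, against 2.47% of all genes, and 1 was higher in GFP+ cells. The count of 4 was 2 without SIX2+ 1, without SIX2+ 2, without GFP+ 2 and after rescaling to TPM, and 1 with no filter and with all 15 libraries in the fit. Besides Snap91, those higher in SIX2+ cells were the neurofilament gene Nefl (3.82, 2.35 and 3.90 against 1.34, 0.897 and 1.29), the RNA-binding protein gene Elavl4 (8.36, 9.07 and 6.19 against 4.86, 3.29 and 3.37) and Vamp2, whose difference was 0.60. Snap25, Syt1, Syp, Stmn2 and Tubb3, common markers of neurons, were below the filter. Of 11 glial and neural crest genes 9 were under 1 in all 6 libraries, and the 2 tested were not called.

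The remaining genes with the largest differences towards SIX2+ cells were low in GFP+ cells. Siglecg, a sialic acid receptor known from B cells, was at 5.33, 7.55 and 6.93 against 0.161, 0.175 and 0.05 (difference 2.74). It was under 1 in every GFP+ library, so its direction was set by the filter and no test of it is given. Lamp5, a LAMP family protein of neurons and dendritic cells, was at 5.23, 7.31 and 6.15 against 0.745, 1.08 and 0.778 (difference 1.95). Only 1 GFP+ library reached 1, so Lamp5 passed the filter mainly through the SIX2+ libraries and no test of it is given. In the unsorted and negative libraries Siglecg reached at most 1.89 and Lamp5 at most 2.32, both in NZC 3. Fam189a2 was at 19.6, 22.7 and 31.7 against 3.61, 3.76 and 4.31 (2.36 ± 0.18, limma's adjusted p = 0.000269). Epb41l4a, a FERM domain protein, was at 9, 11.6 and 13.1 against 2.04, 2.27 and 2.20 (1.93 ± 0.16, adjusted p = 0.000269). Ssc5d, a secreted scavenger receptor, was at 6.47, 7.93 and 11.5 against 1.51, 1.14 and 1.63 (1.96 ± 0.20, adjusted p = 0.000617). Ripply2, a repressor of somite boundaries named after its values were seen, was at 2.40, 2.96 and 1.47 against 0.0936, 0.0511 and 0 (difference 1.62). It too was under 1 in every GFP+ library, so no test of it is given either.

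Scube3 and Cdkn1a were among the genes higher in GFP+ cells. Scube3, a secreted protein that binds growth factors of the TGF-beta family, was at 2.45, 5.13 and 2.65 RPKM in SIX2+ cells and 33.8, 22.3 and 32.1 in GFP+ cells (-2.81 ± 0.24, limma's adjusted p = 0.000269). The unsorted NZC libraries had Scube3 at 27.2, 29.8 and 18.9. Cdkn1a, the p53-inducible inhibitor of the cell cycle, was at 6.84, 3.37 and 4.18 against 14.0, 18.9 and 14.9 (-1.58 ± 0.22, adjusted p = 0.00215). GFP+ cells had the highest Cdkn1a of the table, since the 9 negative and unsorted libraries were at 2.75 to 7.32. Of 23 cell cycle genes tested, Cdkn1a was the only one called, a share like the 4.3% of all genes called higher in GFP+ cells. Mki67, Top2a, Pcna and Ccnb1 differed by -0.32 to 0.29.

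Posterior Hox genes, which set regional identity along the body, differed in both directions. Of 13 tested, Hoxb9 and Hoxa9 were higher in SIX2+ cells and Hoxd12 was higher in GFP+ cells, against 2.47% and 4.3% of all genes. Hoxb9 was at 57.5, 58.8 and 75.3 against 39.9, 25.4 and 33.8 (0.94 ± 0.18, limma's adjusted p = 0.0121). Hoxd12 was at 12.8, 8.55 and 10.9 against 22.9, 18.7 and 19.6 (-0.87 ± 0.17, adjusted p = 0.0109). Hoxa11, which with its paralogs is needed for the kidney to form, was at 54.4, 50.1 and 61.7 against 45.8, 45.4 and 44.5, and was not called (adjusted p = 0.244). Hoxa9 lost its call under 10 of 21 other settings, among them 3 other scalings, and no posterior Hox gene was called higher in SIX2+ cells after rescaling to TPM, after adjustment for length or with no filter. Without GFP+ 3 the count higher in SIX2+ cells was 4. Hoxd12 was not called without GFP+ 1 or without SIX2+ 2.

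Markers of other cells ranged from near 0 to levels close to those of the negative cells, and some differed. In bulk RNA, fewer cells of a type and less RNA per cell cannot be told apart. Of 13 listed erythroid genes 6 passed the filter, each a globin gene. They passed it through the GFP+ libraries, since they were under 1 in every SIX2+ library, so their direction was set by the filter and no test of them is given. The list summed to 0.536 to 2.42 RPKM in SIX2+ cells, 19.4 to 86.3 in GFP+ cells, 6.59 to 25.3 in SIX2- cells and 1358 to 13968 in GFP- cells. In the unsorted NZC libraries, the source of the SIX2+ and SIX2- cells, it summed to 479 to 4945. Hbb-b1 was at 0.564, 0.530 and 0.166 in SIX2+ cells and 28.8, 23.7 and 6.36 in GFP+ cells, and GFP+ 3 was the lowest GFP+ library. Globin genes are near-copies whose reads may have been split (Hbb-b2 and Hbb-bt had identical values), and Hbb-bh1 and Hba-x were at 0 in all 6 libraries. The erythroid enzyme gene Alas2 and the membrane protein gene Slc4a1 were below the filter.

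Cortical stroma genes went in both directions. Meis1, a homeobox factor, was higher in SIX2+ cells at 14.7, 17.6 and 16.8 against 5.6, 5.3 and 5.11 (1.45 ± 0.14, limma's adjusted p = 0.000511), and stood at 44.8 to 68.0 in the negative cells. Aldh1a2, which makes retinoic acid, was lower in SIX2+ cells at 135, 113 and 86.9 against 297, 303 and 275 (-1.40 ± 0.18, adjusted p = 0.00154), with 294 to 496 in the negative cells. Cxcl12 was lower too (-0.58 ± 0.15, adjusted p = 0.0437), a call lost under 12 of 21 other settings, including the absence of any 1 of the 6 libraries. The other 10 of 13 tested were not called. Of all genes 2.47% were called higher in SIX2+ cells and 4.3% higher in GFP+ cells. The summed level of the list was 286 to 350 in SIX2+ cells, 462 to 508 in GFP+ cells and 943 to 1596 in the negative cells, and no member was under 1 in all 6 libraries.

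Interstitial matrix genes were lower in SIX2+ cells where they were called, in 4 of 13 tested, against 4.3% of all genes. These were Col1a2, Col5a1, Fn1 and Col5a2, and the median difference of the list was -0.55. Col1a2 was at 2.83, 1.53 and 2.52 against 7.27, 9.09 and 7.18 (-1.44 ± 0.18, limma's adjusted p = 0.00154) and at 255 to 754 in the negative cells. The list summed to 147 to 170 in SIX2+ cells, 184 to 201 in GFP+ cells and 1868 to 4824 in the negative cells. Without SIX2+ 1 the count called was 2, without SIX2+ 2 it was 2, and without GFP+ 1 it was 1. Plvap of 4 endothelial genes and Ptpro of 5 podocyte genes tested were higher in GFP+ cells, against 4.3% of all genes. Plvap was at 4.15, 5.19 and 4.79 in GFP+ cells against 2.16, 1.2 and 2.11 in SIX2+ cells. Ptpro was at 1.36, 1.40 and 1.23 in GFP+ cells against 0.449, 0.353 and 0.410 in SIX2+ cells. Since Ptpro was under 1 in every SIX2+ library, its direction was set by the filter. The endothelial list summed to 109 to 143 in SIX2+ and 94.0 to 117 in GFP+ cells, and the podocyte list to 93.8 to 106 and 77.1 to 86.1. No tubule gene passed the filter. The part of other cells in the differences of progenitor genes was not tested.

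Ureteric epithelium, the tissue beside the progenitors, was represented by 5 tested genes of 13 listed. Of these, 2 were higher in SIX2+ cells, against 2.47% of all genes, and 1 was higher in GFP+ cells, against 4.3%. Wnt11, a signal of the ureteric tip, was higher in GFP+ cells at 2.33, 2.58 and 2.96 against 1.01, 0.501 and 0.855 (difference -1.03). Only 1 SIX2+ library reached 1, so Wnt11 passed the filter mainly through the GFP+ libraries and no test of it is given. Hoxb7 and Krt18 were higher in SIX2+ cells, by 0.85 (limma's adjusted p = 0.0057) and 0.97 (adjusted p = 0.0413). Krt18 lost its call under 11 of 21 other settings, including the absence of any 1 library but GFP+ 3. Mean Hoxb7 was 33.3 in SIX2+ and 18.0 in GFP+ cells, above the 19.9 in SIX2- and 8.63 in GFP- cells. Mean Krt18, at 8.86 and 4.12 in the same order, was below the 16.3 and 7.17 of these negative cells. The defining genes Ret, Wnt9b, Gata3 and Calb1 were below the filter, and the list summed to 78.0 to 99.5 in SIX2+ and 84.4 to 99.9 in GFP+ cells.

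Immediate early genes respond within minutes to growth factors and stress. Of 27 tested, 3 (Egr3, Egr2 and Dusp2) were higher in SIX2+ cells and none in GFP+ cells, against 2.47% of all genes, and the median difference was 0.49. Egr3 was at 41.6, 29.8 and 26.4 against 9.79, 8.99 and 18.9 (1.36 ± 0.26, limma's adjusted p = 0.0114). Egr4, named after its values were seen and no member of the list, was at 13.3, 8.79 and 15.4 against 2.44, 1.99 and 5.50 (1.70 ± 0.29, adjusted p = 0.00565). The best known members varied widely among libraries, and Fos, Jun and Atf3 differed by 0.83, 0.13 and 0.79 with adjusted p of 0.423 to 0.907. Without GFP+ 3 the test called 7 of the list, with the libraries numbered 1 and 2 only 6, with a term for the libraries numbered 3 it called 9, with library weights 11 and with the replicate number as a block 13. After rescaling to TPM, with no filter and with all 15 libraries in the fit it called 1, and without GFP+ 1 the median difference was 0.18. None of 17 heat shock and unfolded protein genes and none of 20 glycolysis and hypoxia genes was called by limma, with 1 of each list at an unadjusted p under 0.05.

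Of the 6 libraries compared, SIX2+ 2 and 3 had the lowest levels of the Y-linked genes Ddx3y and Kdm5d. Ddx3y, a helicase gene, was at 11.3, 4.66 and 3.25 in SIX2+ cells and 13.6, 8.71 and 9.42 in GFP+ cells (-0.78 ± 0.33, limma's adjusted p = 0.207). Kdm5d, a histone demethylase gene, was called at -0.80 ± 0.21 (adjusted p = 0.0488) and lost that call under 14 of 21 other settings. Xist, made by the inactive X chromosome, was at 34.5, 75.9 and 38.1 against 28.7, 26.0 and 60.3. The part of the sex of the embryos in other differences was not tested.

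The same contrast could be made between the negative fractions, SIX2- minus GFP-, which share method, allele and source with the positive fractions but no library. Across the genes tested the 2 sets of differences correlated at r = 0.68 (Spearman's rho 0.70), as a description, since cells of 1 sort share their handling. The sign was the same for 79.8% of all genes tested and for 656 of the 771 called (85.1%). For the genes higher in SIX2+ cells it was 240 of 281, and for those higher in GFP+ cells 416 of 490. The differences in the negatives had medians of 0.41 and -0.68 for these 2 sets.

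Single genes fell on both sides of this pattern. Zbed6, a transcription factor gene that lies within Zc3h11a, differed by -3.09 in the positive and -3.04 in the negative fractions, and the globin genes by -2.16 to -3.64 and by more than that in the negatives. Cited1 and Fgf8 had values of 1.76 and 1.93 in the negatives, beside 2.58 and 2.15 in the positives. Snap91 was at -0.02 in the negatives, Siglecg at 0.23, Nxph1 at -0.13 and Meis1 at -0.39. Wnt4 and Cdkn1a had the opposite sign there, at 1.72 and 0.56, as did Sp5 at 0.39, Cdh4 at 0.81 and Tnfrsf19 at 0.28. Of the genes called with a difference of at least 1, 43 had the opposite sign in the negatives. Whether the differences themselves differ between fractions was not tested.

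**Figure D4:**
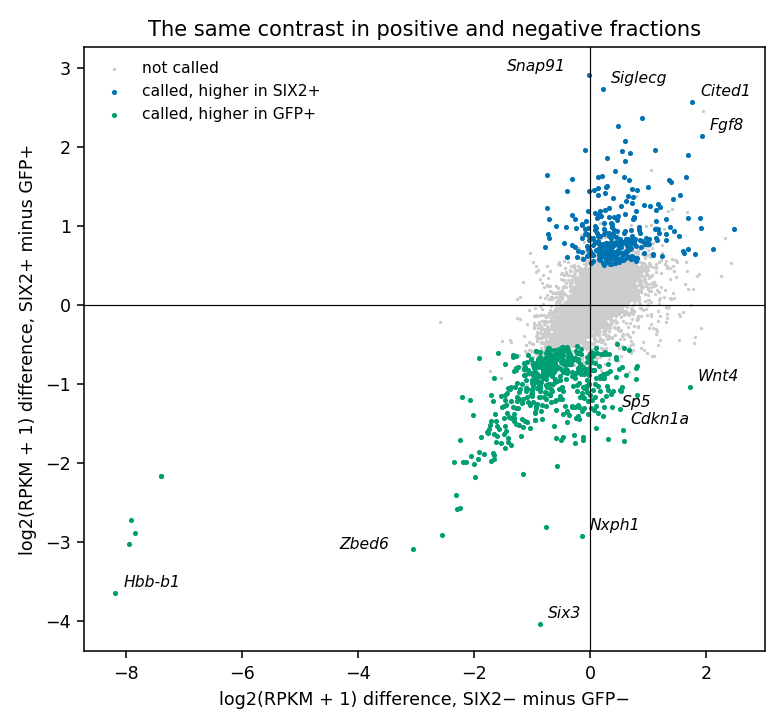
Each point is a gene tested, with the difference of log2(RPKM + 1) between negative fractions (SIX2- minus GFP-) across and between positive fractions (SIX2+ minus GFP+) upward; colours mark called genes. Most points lie along the diagonal (r = 0.68), Snap91, Siglecg and Nxph1 lie close to the vertical axis, Six3 lies to its left at the bottom, and Wnt4 and Cdkn1a lie to its right below 0.

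Exonic length moved with the difference. Genes with short transcripts tended towards SIX2+ cells and genes with long ones towards GFP+ cells (Spearman's rho -0.51 over 11026 genes with a length, and -0.55 in the negative fractions). In 5 equal groups of increasing exonic length, with a median of 1.77 kb in the shortest and 9.98 kb in the longest, the median difference was 0.24, 0.15, 0.05, -0.03 and -0.20. The genes called higher in SIX2+ cells had a median exonic length of 2948 bases and those called higher in GFP+ cells 7764, against 4514 for all tested. The longest group held 236 of the genes called higher in GFP+ cells and 21 of those called higher in SIX2+ cells, and the shortest 28 and 114. The fit adjusted for length called 600 genes, 521 of them among the 771.

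**Figure D5:**
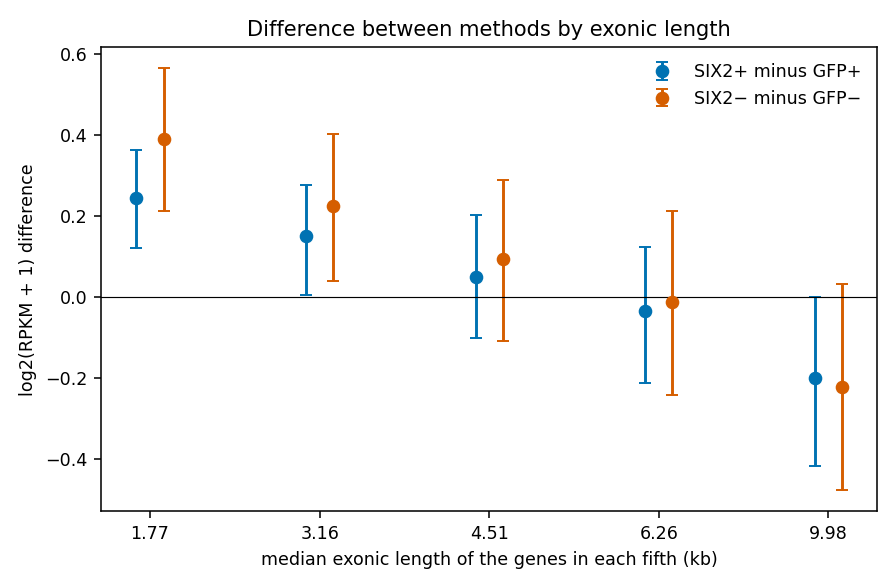
Medians (points) and quartiles (bars) of the difference of log2(RPKM + 1) over genes in 5 equal groups of exonic length, labelled by their median length in kb, for positive (SIX2+ minus GFP+) and negative (SIX2- minus GFP-) fractions. The median falls from 0.24 to -0.20 in the positive and from 0.39 to -0.22 in the negative fractions.

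The 10 genes named for the largest differences towards GFP+ cells had a median exonic length of 4880 bases, over those with a length, near that of all genes tested. This median includes the short globin genes Hbb-bs, Hba-a1 and Hba-a2, of 768, 812 and 667 exonic bases, whose direction was set by the filter. Cbl, another of the 10, is a ubiquitin ligase of receptor kinases with 12345 exonic bases. Its level was 0.705, 1.04 and 1.74 RPKM in SIX2+ cells and 15.4, 7.24 and 13.6 in GFP+ cells (-2.57 ± 0.26, limma's adjusted p = 0.000623, and -2.23 in the negatives). Mib1, Peg3, Rest and Slit2 were named after their values were seen. Mib1, which ubiquitinates Notch ligands, was at 1.73, 2.85 and 3.88 against 23.5, 14.0 and 19.6 (-2.40 in the positives and -2.31 in the negatives). The imprinted gene Peg3, at 14.6, 20.7 and 22.8 against 97.3, 52.9 and 92.6, differed by -1.98 and -2.35, and Rest, a repressor of neuronal genes, by -1.95 and -1.94. Slit2, a guidance signal, differed by -2.04 in the positives and -0.56 in the negatives. In the fit adjusted for length the differences of Cbl, Mib1 and Peg3 were -2.31, -2.18 and -1.70.

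For 2 genes the authors' counting could have split reads with a related gene model, which was not tested, so their values are uncertain. Zbed6 was at 0.642, 1.23 and 1.46 against 20.7, 10.8 and 20.8 (-3.09 ± 0.25, limma's adjusted p = 0.000269), while Zc3h11a, which contains it on the same strand, was at 60.4, 68.7 and 52.7 against 64.1, 52.8 and 77.8 (-0.09 ± 0.17). In GENCODE M21, 74 of the 5007 exonic bases of Zbed6 overlap exons of Zc3h11a, while the annotation the authors used is not given. In the unsorted NZC libraries Zbed6 was at 14.6, 29.1 and 15.4, and in SIX2- cells at 0.672, 1.08 and 2.38. Tgoln2 was at 0 to 0.0989 against 7.61, 2.19 and 7.67 (difference -2.59). Since Tgoln2 was under 1 in every SIX2+ library, its direction was set by the filter and no test of it is given. The closely related Tgoln1, a protein of the trans-Golgi network, was at 12.4, 13.4 and 10.2 against 18.7, 13.1 and 12.1 (-0.25 ± 0.18).

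None of 81 cytoplasmic ribosomal protein genes and none of 74 nuclear oxidative phosphorylation genes tested was called by limma, with 0 and 13 at an unadjusted p under 0.05. Both lists hold housekeeping genes. Without GFP+ 2 the test called 2 and 10 of them, all higher in SIX2+ cells, and with library weights 1 and 14. Their median differences were 0.29 and 0.31, and adjusted for length 0.07 and 0.09. None of 39 histone genes was called either, with 5 at an unadjusted p under 0.05 and a median of 0.06.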

How the data were processed

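The deposited values, titled TPM, were taken as RPKM made by the authors, because their sums per library were unequal (340437 to 429529 over the 6 libraries). TopHat2, Partek and the build mm10 are named without versions or roles, per the submitters' processing notes; the sources used here do not give the annotation or the use of strand. Libraries were made with a Kapa stranded mRNA kit, per the labels' protocols. Low values lay within 0.05 reads of a whole number in only 38.8% to 43.3% of cases, so reads were not recovered, no count model was run and depths are estimates.

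Lines of the same name were summed (20164 lines, 20162 names). Values were compared as log2(RPKM + 1) with limma 3.58.1 in R 4.3.3 (2 group means, eBayes with an intensity trend, 4 residual degrees of freedom, two-sided), with Benjamini-Hochberg adjustment over all 11398 genes tested and a threshold of 0.05. The pseudocount of 1 understates differences of low genes. The fit held the 6 libraries compared. The script was tested on simulated data. Exonic lengths came from GENCODE M21 (GRCm38), promoter windows from RefSeq.

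Named genes are Six2, Foxd1, Six3, Fgf8, Snap91, Sp5, Wnt4, Pax8, Lhx1, Cited1, Eya1 and Crym, the 10 with the largest difference in each direction (called, without overlap, a higher group mean of 5 or more, predicted genes left out), up to 4 called members per list (the 1 with the largest difference where none was called), and others said to be named after their values were seen. The genes, lists and rules were chosen with earlier results of these data known. Dates stand in place of 27 gene names, which are not reported. The alternatives were 3 other scalings, 2 other pseudocounts, 2 other filters, no trend, library weights, fits of 12 and 15 libraries, a replicate block and leaving out each library. Length adjustment, libraries numbered 1 and 2 only and a term for those numbered 3 were added after seeing the data. Mitochondrially encoded genes are not among the names of the table. Figures were drawn with matplotlib 3.10.9 in python 3.11.15, and tables handled with data.table (version 1.17.8), pandas 2.3.3 and numpy 2.4.6. A few list members are counted but not reported by name here.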

Additional observations from a re-analysis of the deposited data

How the results depend on the processing

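The 771 calls (281 higher in SIX2+, 490 higher in GFP+ cells) rest on 3 libraries per group. None of them changed direction in any setting that tested them, which was largely fixed in advance. For 770 of them the groups did not overlap, so leaving out a library could not turn their sign. Settings such as no trend, a replicate block or more libraries in the fit keep the same difference of means. With values of at least 5 in 3 libraries the number of calls was 397 (143 and 254) of 8548 genes tested, with library weights 2713 (1379 and 1334), and with all 15 libraries in the fit 435 (117 and 318). In the fit of the 12 sorted libraries 439 genes were higher in SIX2+ cells, after rescaling to TPM 149, and with libraries numbered 1 and 2 only 444. With a term for the libraries numbered 3 it was 1766 (843 and 923). Leaving out each library in turn gave 364 to 906 calls, with 129 to 337 higher in SIX2+ and 235 to 586 higher in GFP+ cells, and the lowest came without GFP+ 1. The cause of these shifts was not tested.

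The library numbers do not pair the samples by the labels, and deviations from the group means correlated at 0.41, -0.02 and 0.59 between same-numbered libraries, so SIX2+ 2 does not correlate best with GFP+ 2. A fit with the replicate number as a block called 1542 genes (717 higher in SIX2+ and 825 higher in GFP+ cells).

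Of 70 named genes that were called, 31 kept their call in all settings that tested them. Siglecg, Ripply2, Nell2, Tgoln2 and Hbb-b1 are among these 31, and the filter had set their direction. Lamp5, Wnt11 and Nxph1, also among them, passed the filter mainly through the group where they were high. The sign turned in 4 genes that were not called. Six2 was at -0.0030 with median-of-ratios scaling, -0.12 with quantile normalisation, -0.085 after rescaling to TPM, -0.073 with library weights, -0.18 adjusted for length, -0.14 with libraries numbered 1 and 2 only and -0.17 to 0.15 leaving out each library. Zc3h11a was at 0.028 with library weights, 0.14 with libraries numbered 1 and 2 only and -0.23 to 0.049 leaving out each library. In the same way Cd68 ran from -0.081 to 0.86 and Rpl22l1 from -0.034 to 0.88.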

Other observations

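Calcrl, a receptor for calcitonin-like peptides chosen after its values were seen, was at 14.7, 15.8 and 6.53 RPKM in SIX2+ cells and 4.39, 2.62 and 2.27 in GFP+ cells (1.65 ± 0.30, limma's adjusted p = 0.00834), while the negative fractions differed the other way by -0.73. Uncx, a homeobox gene, was at 198, 200 and 288 against 155, 151 and 160 (0.53 ± 0.18, adjusted p = 0.107), and at 25.4 to 76.1 in SIX2- against 4.32 to 11.6 in GFP- cells. Bmp7, a survival signal of progenitors, was at 51, 46 and 60.02 against 73.7, 59.1 and 64.8 (-0.33 ± 0.15, adjusted p = 0.232).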
